A study of Mus musculus with 6 samples.

Results

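The genes described here are 45 listed genes of the lysosome and of autophagy, out of 57010 gene identifiers in the count table. They comprise 28 lysosomal genes (membrane proteins, proteases, other hydrolases, lumenal helper proteins and proton pump subunits), the 3 genes Tfeb, Tfe3 and Mitf of 1 transcription factor family, and 14 autophagy genes. All 45 were found by symbol, and 44 passed the filter on low counts; Ctss, the cathepsin S gene typical of antigen-presenting cells, did not, with 10 and 6 counts on 1 kPa gels, 6 and 1 on 20 kPa gels, and 4 and 7 on glass. RNA sequencing of polyadenylated RNA was done on mouse fibroblasts that the labels place in the ear and the series text calls dermal. The groups were cells on polyacrylamide hydrogels of 1 kPa, cells on polyacrylamide hydrogels of 20 kPa, and cells on glass as the control, with 2 libraries each, 500000 cells plated per sample and 3 days of culture. The comparison asks how substrate stiffness relates to the state of fibroblasts in a study of neuronal reprogramming. No strain, age, sex or reprogramming factor is given in the labels used here, and separate cultures or animals behind the paired libraries of 1 substrate are not stated, so that each p-value sets a difference against the spread between libraries, which may be technical.

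The lysosome is the acidic compartment in which cells break down proteins, lipids and sugars, and a proton pump in its membrane keeps it acidic. In autophagy a double membrane closes around cytoplasmic cargo and fuses with the lysosome, so that the cargo reaches the same enzymes. TFEB, TFE3 and MITF bind a short palindromic DNA element, the CLEAR element, in the promoters of many lysosomal genes, and their entry into the nucleus is controlled by the nutrient-sensing kinase complex mTORC1 at the lysosomal surface. Fibroblasts also secrete some lysosomal proteases, such as cathepsin K, which cleaves collagen.

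Library totals ran between 17669006 and 21350111 counts. Levels are given as CPM, counts scaled to a common library size with TMM factors, a normalisation that assumes most genes equal between libraries. At these depths 3 counts, the limit that a count of 0 allows, correspond to 0.139 to 0.174 CPM, and this limit covers counting error only. Across tested genes, Pearson's r of log2 CPM was 0.995 to 0.996 within groups and 0.964 to 0.989 between them. The most abundant gene of a library took 1.83 to 2.9% of its counts in 5 libraries and 5.1% in glass replicate 2. The identifier with the most counts over all libraries differed within groups. It took 2.9 and 1.28% on 1 kPa, 0.947 and 1.31% on 20 kPa, and 1.17 and 5.1% on glass. All 9 fibroblast markers were detected, with a summed level of 28325 to 29457 CPM on 1 kPa, 30879 to 32138 CPM on 20 kPa and 19588 to 20975 CPM on glass. Among them Dcn rose by 4.49 on 1 kPa and 4.21 on 20 kPa, and Lum by 4.36 and 4.28, while Vim fell by 0.94 and 0.62, all log2 fold changes against glass. The 12 macrophage markers summed to 14.8 to 16.8 CPM on 1 kPa, 13.6 to 14.5 CPM on 20 kPa and 11.9 to 14.3 CPM on glass. Ptprc, the pan-leukocyte gene, had 2 to 5 counts per library. Lyz2 rose by 0.99 on 1 kPa and 0.74 on 20 kPa, and Mrc1 by 1.69 on 1 kPa, all past the threshold against glass. Csf1r had a log2 fold change of -0.89 on 20 kPa against glass, also past the threshold. Adgre1, Cd68 and Fcer1g passed in no comparison. The 5 chondrocyte markers summed to 694 to 700 CPM on 1 kPa, 1205 to 1253 CPM on 20 kPa and 515 to 550 CPM on glass. Of them Acan, Col2a1 and Comp rose on both gels against glass. Sox9 had log2 fold changes of -0.80 on 1 kPa and -0.18 on 20 kPa against glass, both past the threshold. Matn3 rose by 2.14 on 20 kPa against glass, and its -0.66 on 1 kPa did not pass. All 5 were higher on 20 kPa than on 1 kPa, beside 8.94% of all tested genes. The 4 endothelial markers summed to 21 to 22.9 CPM on 1 kPa, 20.1 to 20.5 CPM on 20 kPa and 11.4 to 12 CPM on glass. Against glass Pecam1 rose by 1.75 on 1 kPa and 1.49 on 20 kPa, Cdh5 by 0.91 and 0.59, and Kdr by 1.38 on 20 kPa. Kdr on 1 kPa (0.53) and Tek on 1 kPa (-0.24) and 20 kPa (-0.72) did not pass. The 6 keratinocyte markers summed to 25.9 to 27.7 CPM, 26.7 to 27 CPM and 18.1 to 22.8 CPM in the same order, most of it Trp63, which rose by 1.08 on 1 kPa and 1.03 on 20 kPa, while Krt5 fell by 4.29 on 1 kPa and 2.67 on 20 kPa against glass. Krt14 and Dsp also fell, with log2 fold changes of -2.24 and -1.87 on 1 kPa, and -3.39 and -1.48 on 20 kPa. The part of these markers in the differences of the listed genes was not tested, and in bulk RNA fewer cells of a type cannot be told apart from less RNA per cell.

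The promoters of the listed genes were searched for the CLEAR core TCACGTGA and for the E-box CACGTG that it contains. Both read the same on either strand. RefSeq windows of 300 bases, 250 before the start of transcription and 50 after it (GRCm38.p6), were at hand for 39 of the 45 genes. The CLEAR core stood in the window of 6 of the 39 genes (15.4%), against 2.12% of the 11169 tested genes with a window, and all 6 were lysosomal (Mcoln1, Ctsa, Ctsd, Gla, Atp6v0d1 and Atp6v1a). An E-box, with or without the core, was found in 13 of 39 (33.3%), against 11.4% of the tested genes. Of the lysosomal genes with a window 6 of 26 (23.1%) held the core, and of the autophagy genes 0 of 10. In the 8 wider lists of the same pathways described further on, 12 of 133 genes with a window (9.02%) held it. The element is known from promoters of lysosomal genes, so these shares describe the lists and were not tested.

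The windows shown are those of the genes with the core whose values are given in every library below, with the core and any E-box in capitals. That of Ctsd is chr7:142387778-142388077 and that of Atp6v0d1 is chr8:105566015-105566314, both on the minus strand. The Atp6v1a window is chr16:44139210-44139509 on the minus strand. The starts used for Ctsd and Atp6v1a lie inside the outer bounds of the annotated genes. Lamp1, at chr8:13158911-13159210 on the plus strand, has no core and was added after its letters were seen, because its window holds 4 E-boxes within 61 bases before the start.
Ctsd: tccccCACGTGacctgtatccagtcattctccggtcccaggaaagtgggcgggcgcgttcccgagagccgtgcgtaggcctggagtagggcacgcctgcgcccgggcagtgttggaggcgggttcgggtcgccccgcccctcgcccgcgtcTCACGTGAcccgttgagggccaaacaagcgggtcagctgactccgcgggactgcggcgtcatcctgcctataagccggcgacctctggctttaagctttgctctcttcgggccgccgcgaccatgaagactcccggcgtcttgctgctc
Atp6v0d1: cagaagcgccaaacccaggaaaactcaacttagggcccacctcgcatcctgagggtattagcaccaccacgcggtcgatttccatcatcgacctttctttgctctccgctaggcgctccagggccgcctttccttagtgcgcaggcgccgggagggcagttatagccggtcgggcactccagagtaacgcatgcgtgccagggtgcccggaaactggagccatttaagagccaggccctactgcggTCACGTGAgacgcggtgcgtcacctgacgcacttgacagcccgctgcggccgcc
Atp6v1a: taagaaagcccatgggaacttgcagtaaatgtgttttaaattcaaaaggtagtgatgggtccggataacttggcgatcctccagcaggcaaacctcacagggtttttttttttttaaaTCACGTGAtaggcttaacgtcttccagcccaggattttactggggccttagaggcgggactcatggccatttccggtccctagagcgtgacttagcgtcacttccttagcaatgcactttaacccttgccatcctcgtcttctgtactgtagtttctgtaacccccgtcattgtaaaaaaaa
Lamp1: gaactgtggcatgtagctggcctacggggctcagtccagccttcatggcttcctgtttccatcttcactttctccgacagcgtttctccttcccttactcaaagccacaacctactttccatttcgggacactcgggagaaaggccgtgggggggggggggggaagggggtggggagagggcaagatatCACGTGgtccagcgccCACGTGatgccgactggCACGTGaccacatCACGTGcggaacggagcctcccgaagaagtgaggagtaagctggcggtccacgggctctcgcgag
The core began 99 bases before the start in Ctsd, 4 bases before it in Atp6v0d1 and 132 bases before it in Atp6v1a. A match in a window is a description of the letters and not a site shown to be bound.

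**Figure D1:**
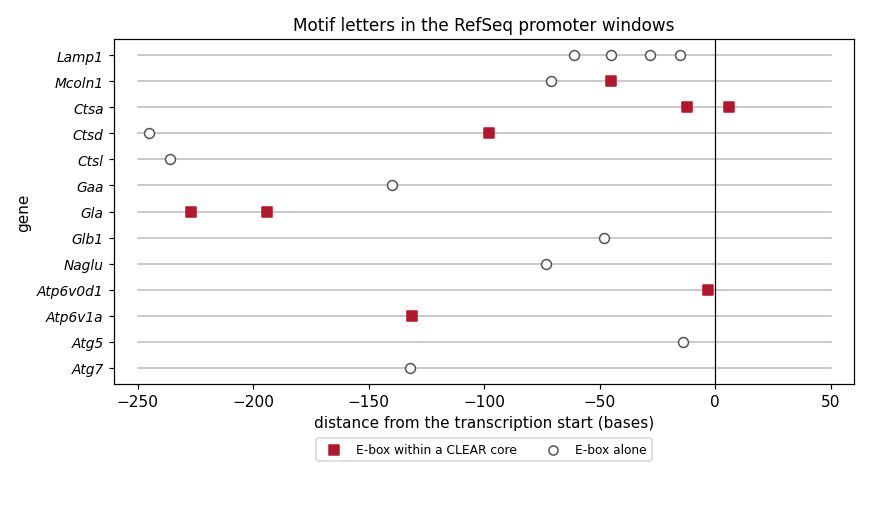
Position of the CLEAR core and of E-boxes outside it in the RefSeq promoter windows of the 13 listed genes that hold either, in bases from the transcription start (x axis) with 1 gene per row. The 4 E-boxes of Lamp1 and the cores of Ctsa and Atp6v0d1 lie close to the start, and of the cores the 2 of Gla lie farthest upstream, with E-boxes of Ctsd and Ctsl farther still.

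Over all the listed genes, more passed the test as higher on the gels than the background of all genes, while the falls were near that background. On 1 kPa against glass 17 of the 44 tested genes were higher and 9 were lower at an adjusted p under 0.05 (edgeR quasi-likelihood test, Benjamini-Hochberg over all tested genes), or 38.6% and 20.5%, where 23.0% of all 16093 tested genes were higher and 22.0% were lower. On 20 kPa against glass 18 were higher and 7 lower (40.9% and 15.9%), against 22.3% and 19.6% of all tested genes. On 20 kPa against 1 kPa 10 were higher and 3 lower (22.7% and 6.82%), against 8.94% and 9.92% of all tested genes. In that comparison fewer rises and falls passed when a gel library was left out, and more when a glass library was left out. That held for the listed genes and over all tested genes. With libraries scaled by total counts the split over all genes on 20 kPa against 1 kPa moved to 60.8% of calls being higher, against 47.4% with TMM. The listed genes are more abundant than most, with a median of 104 CPM over all libraries against 18.3 CPM for all tested genes, which bears on how readily a small difference passes. All comparisons with glass share the same 2 control libraries.

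Their differences were small. The median log2 fold change of the tested listed genes was 0.04 on 1 kPa against glass, 0.08 on 20 kPa against glass and 0.06 on 20 kPa against 1 kPa, beside medians of 0.00, 0.02 and 0.00 over all tested genes. Only Mitf reached a 2-fold difference on 1 kPa against glass, and only Mitf and Ctsk exceeded it on 20 kPa against glass, with Scarb2 just under it there, while 14.5% and 13.4% of all tested genes were past 2-fold in these comparisons. Every 1 kPa library lay on 1 side of both glass libraries for 38 of 44 listed genes, and for 71.0% of all tested genes. For 20 kPa against glass 34 of 44 did not overlap (67.5% of all tested genes), and for 20 kPa against 1 kPa 32 of 44 (60.1% of all tested genes). In the test over all 3 groups 30 of 44 passed, against 51.2% of all tested genes. Summed over all 45, the listed genes had 10551 and 10399 CPM on 1 kPa, 11145 and 11007 CPM on 20 kPa, and 9873 and 9660 CPM on glass, so the 20 kPa libraries were highest and the groups did not overlap.

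**Figure D2:**
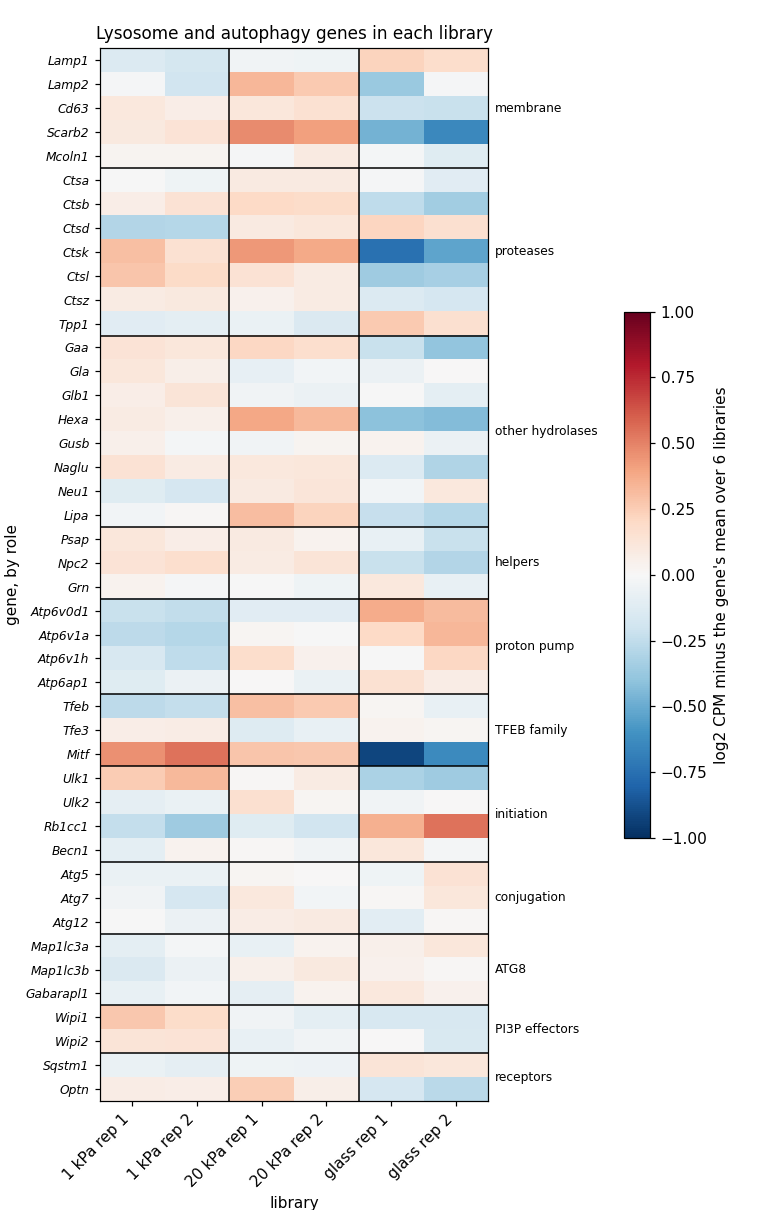
Level of each tested listed gene in each of the 6 libraries, as log2 CPM minus the gene's mean over the libraries (colour, limited to 1 in either direction), with genes in rows by role and libraries in columns. The Atp6v0d1 and Atp6v1a rows are highest on glass, while the Mitf, Ctsk and Scarb2 rows are lowest there.

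The lysosomal membrane proteins moved in different directions. LAMP1 and LAMP2 are the abundant glycoproteins that line the lysosome, CD63 is a tetraspanin of late endosomes, LIMP-2 (Scarb2) carries glucocerebrosidase to the lysosome and serves as a membrane receptor, and mucolipin 1 (Mcoln1) is a calcium channel. Scarb2, on chromosome 5 at 92441314 to 92506833 (minus strand, gene bounds of GENCODE M21 on GRCm38, as for the genes below), had 157 and 162 CPM on 1 kPa, 205 and 197 CPM on 20 kPa, and 107 and 94.3 CPM on glass. It was highest on 20 kPa and lowest on glass, with no overlap between any of the groups. It rose by 0.67 on the log2 scale on 1 kPa against glass (SE 0.06, adjusted p = 3.4e-10) and by 1.00 on 20 kPa against glass (SE 0.06, adjusted p = 4.5e-14). It was also higher on 20 kPa than on 1 kPa, by 0.33 (SE 0.06, adjusted p = 0.00016).

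Lamp1 was highest on glass. It had 673 and 655 CPM on 1 kPa, 722 and 718 CPM on 20 kPa, and 864 and 835 CPM on glass, and the groups did not overlap. Its log2 fold change was -0.35 on 1 kPa against glass (SE 0.06, adjusted p = 4.9e-06) and -0.24 on 20 kPa against glass (SE 0.06, adjusted p = 0.00089). The difference between the gels, 0.12 (SE 0.06), did not pass (adjusted p = 0.16), but did without glass replicate 1 and without glass replicate 2 (adjusted p = 0.035 in both). Lamp2, in contrast, had 585 and 517 CPM on 1 kPa, 746 and 710 CPM on 20 kPa, and 457 and 586 CPM on glass. The 20 kPa libraries stood above the other 4, and 1 kPa and glass overlapped. Lamp2 rose by 0.48 on 20 kPa against glass (SE 0.08, adjusted p = 6.4e-06) and by 0.40 on 20 kPa against 1 kPa (SE 0.08, adjusted p = 0.00026), the second of which did not pass in DESeq2 (adjusted p = 0.099). On 1 kPa against glass it did not pass (0.08, SE 0.08, adjusted p = 0.41), except without glass replicate 2 (0.27, adjusted p = 0.00032). Cd63 rose on both gels, by 0.30 on 1 kPa and 0.35 on 20 kPa against glass. Mcoln1, with the CLEAR core in its promoter window, passed in no comparison, with log2 fold changes of 0.09, 0.11 and 0.01 on 1 kPa against glass, 20 kPa against glass and 20 kPa against 1 kPa.

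Among the 7 tested proteases, 4 rose and 2 fell on 1 kPa against glass, and 5 rose and 1 fell on 20 kPa against glass. On 1 kPa these were 57.1% and 28.6%, beside 23.0% higher and 22.0% lower over all tested genes. On 20 kPa they were 71.4% and 14.3%, beside 22.3% and 19.6%. Cathepsins B, K, L and Z (Ctsb, Ctsk, Ctsl, Ctsz) are cysteine proteases, cathepsin D (Ctsd) is the main aspartic protease of the lysosome, cathepsin A (Ctsa) is a serine carboxypeptidase that also protects other enzymes, and Tpp1 is a tripeptidyl peptidase. Ctsk, on chromosome 3 at 95499256 to 95509362 (plus strand), had 183 and 164 CPM on 1 kPa, 200 and 193 CPM on 20 kPa, and 88.5 and 103 CPM on glass. All 4 gel libraries lay above both glass libraries. It rose by 0.86 on 1 kPa against glass (SE 0.07, adjusted p = 7.3e-12) and by 1.04 on 20 kPa against glass (SE 0.07, adjusted p = 1.1e-13). Between the gels the log2 fold change of Ctsk was 0.18 (SE 0.07, adjusted p = 0.059), which passed without 1 kPa replicate 1 (0.26, adjusted p = 0.046), without glass replicate 1 (adjusted p = 0.0067) and without glass replicate 2 (adjusted p = 0.007). Ctsk is also an osteoclast enzyme. The 6 other osteoclast markers summed to 18.1 to 20.8 CPM on 1 kPa, 13.1 to 13.4 CPM on 20 kPa and 1.74 to 2.54 CPM on glass, of which Mmp9, a matrix protease that fibroblasts can also make, gave 18.2 and 15.7 CPM, 11 and 11.5 CPM, and 0.555 and 0 CPM in the same order of groups. Dcstamp, which osteoclasts need to fuse, had 1 count in 1 library and 0 counts in the other 5. Calcr, the calcitonin receptor gene, had 5 and 3 counts on 1 kPa, 2 and 2 on 20 kPa, and 0 and 0 on glass. Acp5, the acid phosphatase gene, had 25 to 31 counts per library and passed in no comparison, Oscar had 4 to 12 counts, and Ocstamp 0 to 6. Whether these markers account for the Ctsk difference was not tested.

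Ctsl and Ctsb rose on both gels. Ctsl had 828 and 783 CPM on 1 kPa, 756 and 726 CPM on 20 kPa, and 535 and 544 CPM on glass, so that 1 kPa was highest and no groups overlapped. Its log2 fold change was 0.58 on 1 kPa (SE 0.06, adjusted p = 9.4e-10) and 0.46 on 20 kPa (SE 0.06, adjusted p = 1e-07) against glass. Between the gels Ctsl differed by -0.12 (SE 0.06, adjusted p = 0.15), which passed without glass replicate 1 (adjusted p = 0.044) and without glass replicate 2 (adjusted p = 0.042). Other genes overlap 26.8% of the exonic length of Ctsl, and the strand setting of the counting is not known. Ctsb rose by 0.41 on 1 kPa and 0.49 on 20 kPa, and Ctsz by 0.24 on 1 kPa and 0.21 on 20 kPa, all against glass. Ctsa rose by 0.15 on 20 kPa against glass (SE 0.06, adjusted p = 0.032). That call of Ctsa was lost in 8 of 14 alternative settings, with adjusted p = 0.13 without 20 kPa replicate 1, without 20 kPa replicate 2 and without glass replicate 2, 0.07 without 1 kPa replicate 1 and 0.086 without 1 kPa replicate 2.

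Ctsd and Tpp1 went the other way. Ctsd had 514 and 517 CPM on 1 kPa, 670 and 680 CPM on 20 kPa, and 731 and 705 CPM on glass. The 1 kPa libraries were the lowest, and no groups overlapped. Ctsd fell on 1 kPa against glass by 0.48 on the log2 scale (SE 0.06, adjusted p = 2.7e-08) and was higher on 20 kPa than on 1 kPa by 0.39 (SE 0.06, adjusted p = 4e-06). On 20 kPa against glass its log2 fold change of -0.09 (SE 0.06) did not pass (adjusted p = 0.22). A predicted gene, Gm49369, overlaps 34.4% of the exonic length of Ctsd, so reads of that stretch may belong to either. Tpp1 had 179 and 182 CPM on 1 kPa, 185 and 175 CPM on 20 kPa, and 232 and 216 CPM on glass. The gels overlapped each other and lay below glass. Tpp1 fell by 0.31 on 1 kPa (SE 0.06, adjusted p = 5e-05) and by 0.32 on 20 kPa (SE 0.06, adjusted p = 4.6e-05) against glass.

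None of the 8 other hydrolases passed as lower in any comparison. Over all tested genes 22.0% were lower on 1 kPa and 19.6% on 20 kPa against glass, and 9.92% on 20 kPa against 1 kPa. They include the enzymes that degrade glycogen (Gaa), glycolipids (Gla, Glb1, Hexa, Neu1), glycosaminoglycans (Gusb, Naglu) and lipid esters (Lipa). Hexa, a subunit of beta-hexosaminidase, had 202.3 and 197.8 CPM on 1 kPa, 250.2 and 239.9 CPM on 20 kPa, and 144 and 142 CPM on glass. The order was 20 kPa, 1 kPa, glass, with no overlap. Its log2 fold change was 0.49 on 1 kPa against glass (SE 0.06, adjusted p = 3e-08), 0.78 on 20 kPa against glass (SE 0.06, adjusted p = 1.5e-12) and 0.29 on 20 kPa against 1 kPa (SE 0.06, adjusted p = 0.00025). Lipa, the acid lipase that frees cholesterol and fatty acids, had 96.6 and 99.3 CPM on 1 kPa, 122 and 115 CPM on 20 kPa, and 84 and 81 CPM on glass. Its groups stood in the same order as those of Hexa. Lipa rose by 0.25 on 1 kPa (SE 0.06, adjusted p = 0.0017) and by 0.52 on 20 kPa (SE 0.06, adjusted p = 4e-08) against glass, and by 0.27 on 20 kPa against 1 kPa (SE 0.06, adjusted p = 0.0015), the last of which was lost without 20 kPa replicate 1 (0.23, adjusted p = 0.059).

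Gaa and Naglu also rose on both gels against glass, Gaa by 0.43 on 1 kPa and 0.50 on 20 kPa, and Naglu by 0.33 on 1 kPa and 0.32 on 20 kPa. Neu1, the sialidase, was higher on 20 kPa than on 1 kPa by 0.25 (SE 0.08, adjusted p = 0.036), a call lost in DESeq2 (adjusted p = 0.15) and without 20 kPa replicate 1 (adjusted p = 0.11), 20 kPa replicate 2 (0.17), 1 kPa replicate 1 (0.13) or 1 kPa replicate 2 (0.25). Gla, Glb1 and Gusb passed in no comparison. Gusb had the closest levels of the 3, at 86 to 90.1 CPM on 1 kPa, 85.2 to 88.7 CPM on 20 kPa and 83.8 to 89.1 CPM on glass. Of the lumenal helper proteins, Psap, the precursor of the saposins that present lipids to hydrolases, rose by 0.24 on 1 kPa and 0.21 on 20 kPa against glass, the second not without 20 kPa replicate 1 (0.18, adjusted p = 0.092). Npc2, which carries cholesterol inside the lysosome, rose by 0.41 on 1 kPa and 0.36 on 20 kPa against glass. Grn, the gene of progranulin, passed in no comparison, with log2 fold changes between -0.04 and 0.00.

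**Figure D3:**
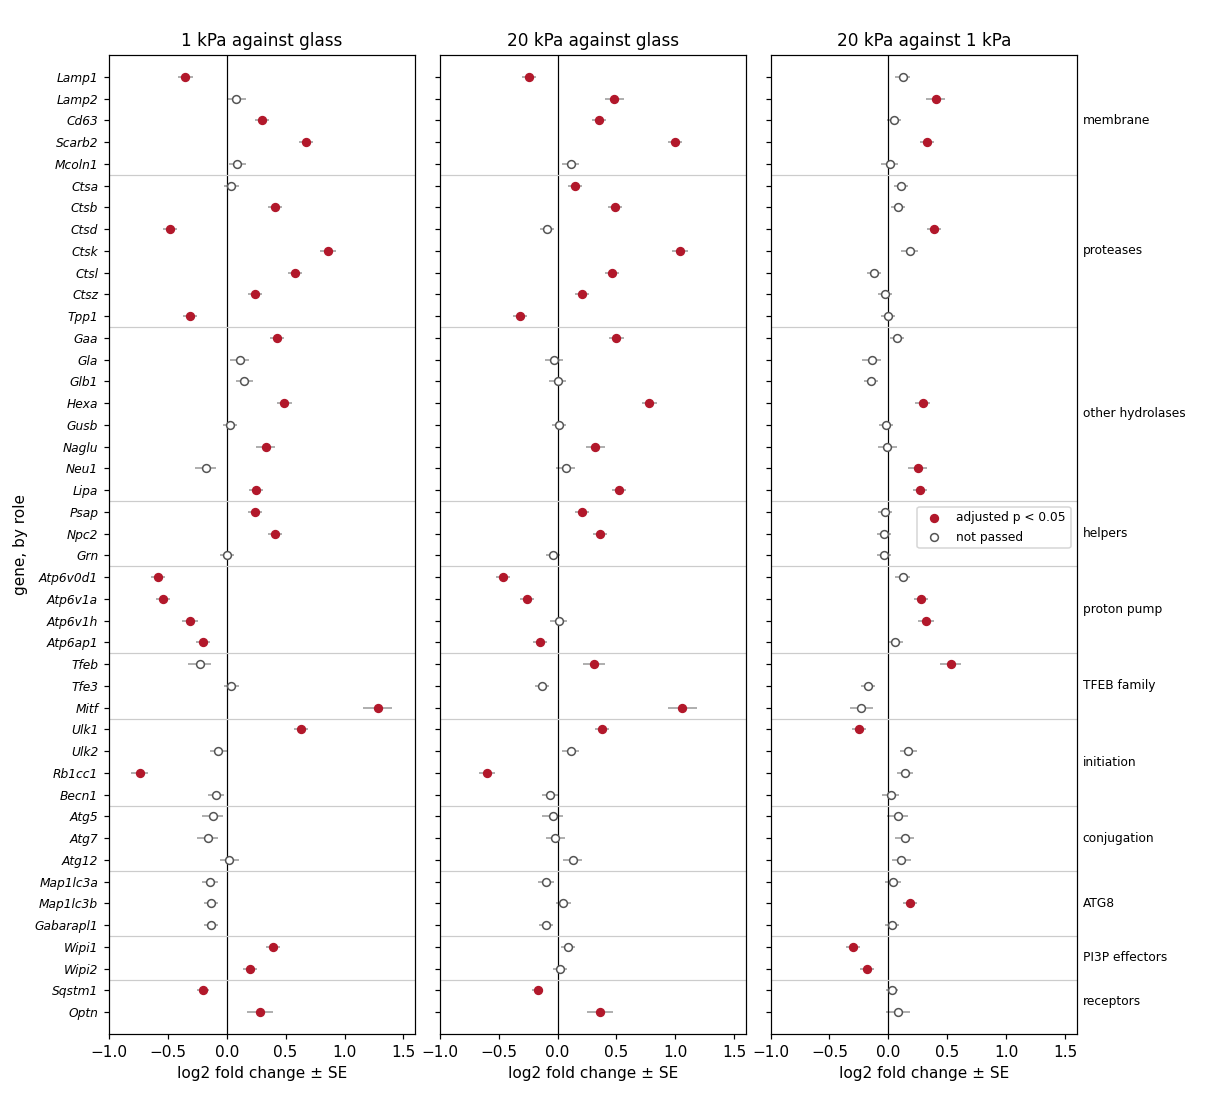
Log2 fold change with its SE for each tested listed gene, by role, in the 3 comparisons (panels), filled where the adjusted p is under 0.05. The pump genes lie left of 0 or at it in both comparisons with glass, and Scarb2, Ctsk and Mitf lie farthest right on the gels.

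The 4 listed subunits of the proton pump, the vacuolar ATPase, all fell on 1 kPa against glass, where 22.0% of all tested genes were lower. On 20 kPa against glass 3 of the 4 fell, beside 19.6% of all tested genes. Atp6v1a and Atp6v1h belong to the cytosolic part that splits ATP, Atp6v0d1 joins that part to the membrane part, and Atp6ap1 is an accessory protein of pump assembly. Atp6v0d1 had 89.3 and 87.9 CPM on 1 kPa, 96.6 and 96.6 CPM on 20 kPa, and 135 and 130 CPM on glass. Glass was highest and the groups did not overlap. It fell by 0.58 on 1 kPa (SE 0.06, adjusted p = 2.6e-09) and by 0.46 on 20 kPa (SE 0.06, adjusted p = 2.3e-07) against glass, and the gels differed by 0.12 (SE 0.06, adjusted p = 0.16). Atp6v1a had 162 and 160 CPM on 1 kPa, 197 and 194 CPM on 20 kPa, and 223 and 245 CPM on glass. Its levels ranked 1 kPa, 20 kPa, glass from low to high, without overlap. Its log2 fold change was -0.54 on 1 kPa against glass (SE 0.06, adjusted p = 6.5e-09), -0.26 on 20 kPa against glass (SE 0.06, adjusted p = 0.00062) and 0.28 on 20 kPa against 1 kPa (SE 0.06, adjusted p = 0.00064).

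Atp6v1h had 73.3 and 68.8 CPM on 1 kPa, 92.8 and 84.7 CPM on 20 kPa, and 81.7 and 94.7 CPM on glass. The 1 kPa libraries were lowest, and 20 kPa overlapped glass. It fell by 0.31 on 1 kPa against glass (SE 0.07, adjusted p = 0.00081), did not pass on 20 kPa against glass (0.01, SE 0.07, adjusted p = 0.91), and was 0.32 higher on 20 kPa than on 1 kPa (SE 0.07, adjusted p = 0.0015). That last call was lost without 20 kPa replicate 1 (0.26, adjusted p = 0.078) and without 1 kPa replicate 2 (0.28, adjusted p = 0.069). Atp6ap1 fell by 0.20 on 1 kPa against glass (SE 0.06, adjusted p = 0.0046), except without 1 kPa replicate 1 (adjusted p = 0.11). Its fall of 0.15 on 20 kPa against glass (SE 0.06, adjusted p = 0.043) was lost in 9 of 14 alternatives, with adjusted p = 0.079 without 20 kPa replicate 1, 0.31 without 20 kPa replicate 2, 0.16 without glass replicate 1, 0.094 without 1 kPa replicate 1 and 0.096 without 1 kPa replicate 2. Scaling by total counts gave 2 falls of listed pump subunits on 20 kPa against glass.

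Over the 20 tested subunits of the pump, listed and from the wider list, 2 were higher and 11 lower on 1 kPa against glass, 1 higher and 8 lower on 20 kPa against glass, and 6 higher and 2 lower on 20 kPa against 1 kPa. The lower ones were 55% of the subunits on 1 kPa and 40% on 20 kPa against glass, beside 22.0% and 19.6% of all tested genes. Between the gels 10% were lower, beside 9.92%. The higher ones were 10% and 5% on 1 kPa and 20 kPa against glass, beside 23.0% and 22.3% of all tested genes. Between the gels 30% were higher, beside 8.94%. Fewer of the 11 falls on 1 kPa against glass passed without 1 kPa replicate 1 or 1 kPa replicate 2. The 8 falls on 20 kPa against glass numbered 5 in DESeq2, 5 with no filter and 4 with total counts. Over all tested genes the 3150 falls there numbered 2590, 2918 and 2655 in the same order. Fewer of the 8 also passed without glass replicate 1 or any 1 gel library. Fewer of the 6 rises between the gels passed without 20 kPa replicate 1 or 1 kPa replicate 2. In each of these fits with a library left out, the matching count over all tested genes was lower too. The exceptions among the other subunits include Tcirg1, a membrane subunit best known from osteoclasts, with 100 and 99.4 CPM on 1 kPa, 72.2 and 76.6 CPM on 20 kPa, and 76.9 and 71.2 CPM on glass. Tcirg1 rose by 0.43 on 1 kPa against glass (SE 0.06, adjusted p = 2.4e-06) and was 0.42 lower on 20 kPa than on 1 kPa on the log2 scale (log2 fold change -0.42, SE 0.06, adjusted p = 1e-05). Atp6v1c2, a subunit with tissue-restricted expression, had 1.75 and 1.57 CPM on 1 kPa, 4.73 and 4.31 CPM on 20 kPa, and 1.62 and 1.8 CPM on glass. It stood out on 20 kPa, where it rose by 1.41 against glass (SE 0.25, adjusted p = 2.6e-05) and by 1.44 against 1 kPa (SE 0.25, adjusted p = 6.8e-05). Atp6ap2 fell by 0.54 on 1 kPa and 0.34 on 20 kPa, and Atp6v1d by 0.43 on 1 kPa and 0.18 on 20 kPa, both against glass.

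The 3 genes of the TFEB family had 3 different patterns. Mitf, on chromosome 6 at 97807052 to 98021349 (plus strand), had 21.2 and 22.5 CPM on 1 kPa, 18.7 and 18.6 CPM on 20 kPa, and 8.14 and 9.92 CPM on glass. All gel libraries were above glass, and the gels did not overlap each other. Mitf rose by 1.28 on 1 kPa (SE 0.12, adjusted p = 1.5e-10) and by 1.06 on 20 kPa (SE 0.12, adjusted p = 1.2e-08) against glass, or 2.44-fold and 2.08-fold, the largest log2 fold changes of any tested listed gene in these comparisons. The gels differed by -0.23 (SE 0.10, adjusted p = 0.13). MITF is also the master regulator of melanocytes. The 7 other melanocyte markers summed to 5.83 to 6.82 CPM on 1 kPa, 4.14 to 4.75 CPM on 20 kPa and 1.74 to 1.76 CPM on glass, led by Sox10, a neural crest factor, with 4.58 and 4.15 CPM, 2.19 and 2.13 CPM, and 0.878 and 0.406 CPM in the same order of groups. Sox10 rose 6.52-fold on 1 kPa (adjusted p = 3.4e-08) and 3.23-fold on 20 kPa (adjusted p = 0.00024) against glass. The pigment enzyme gene Dct had 6 and 5 counts on 1 kPa, 12 and 13 on 20 kPa, and 2 and 3 on glass, and rose on 20 kPa against glass by 2.18 (adjusted p = 0.011). Tyrp1 had 1 and 2 counts on 1 kPa, 7 and 13 on 20 kPa, and 0 and 2 on glass, Pmel had 13 to 29 counts per library, and Kit had 2 to 10. Tyr and Mlana, which define pigment cells, had 0 or 1 count per library. Whether the melanocyte markers account for the Mitf difference was not tested.

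Tfeb peaked on 20 kPa. The gene, on chromosome 17 at 47737030 to 47792419 (plus strand), had 18.3 and 18.6 CPM on 1 kPa, 27 and 26.3 CPM on 20 kPa, and 22.2 and 20.8 CPM on glass, and the groups did not overlap. It rose by 0.53 on 20 kPa against 1 kPa (SE 0.09, adjusted p = 8.3e-05) and by 0.31 on 20 kPa against glass (SE 0.09, adjusted p = 0.0079). The second call was lost in DESeq2 and without 20 kPa replicate 1 (0.29 and adjusted p = 0.056 in both). On 1 kPa against glass its log2 fold change was -0.23 (SE 0.10, adjusted p = 0.056), which passed without glass replicate 2 (-0.27, adjusted p = 0.048). Tfe3 had 83.1 and 83.8 CPM on 1 kPa, 72.8 and 75.7 CPM on 20 kPa, and 81.6 and 80.6 CPM on glass. Its 20 kPa libraries were the lowest of the 6. Its log2 fold change was 0.04 on 1 kPa against glass (SE 0.06, adjusted p = 0.64), -0.13 on 20 kPa against glass (SE 0.06, adjusted p = 0.11) and -0.17 on 20 kPa against 1 kPa (SE 0.06, adjusted p = 0.062). That last difference of Tfe3 passed in 5 of 14 alternatives, among them without glass replicate 1 (adjusted p = 0.03) and without glass replicate 2 (adjusted p = 0.029). RNA levels do not show where these factors were in the cell.

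The genes with the CLEAR core did not move as 1 block. Of the 6, on 1 kPa against glass 0 were higher and 3 lower (Ctsd, Atp6v0d1 and Atp6v1a). On 20 kPa against glass 1 was higher (Ctsa, by 0.15) and 2 lower (Atp6v0d1 and Atp6v1a). The Ctsa call was lost in alternatives that include DESeq2 and RLE size factors, and other genes overlap 17.4% of its exonic length. On 20 kPa against 1 kPa 2 were higher (Ctsd and Atp6v1a) and 0 lower. Of the 7 with an E-box and no core, 3 were higher (Ctsl, Gaa and Naglu) and 1 lower (Lamp1) on each gel against glass, and none passed between the gels. Of the 25 tested genes with a window holding neither motif, 13 were higher and 3 lower on each gel against glass. Between the gels 7 of them were higher and 3 lower. Over all tested genes 23.0% were higher and 22.0% lower on 1 kPa against glass, and 22.3% and 19.6% on 20 kPa against glass. The shares on 20 kPa against 1 kPa were 8.94% and 9.92%. The motif classes hold few genes, and differences between them were not tested.

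**Figure D4:**
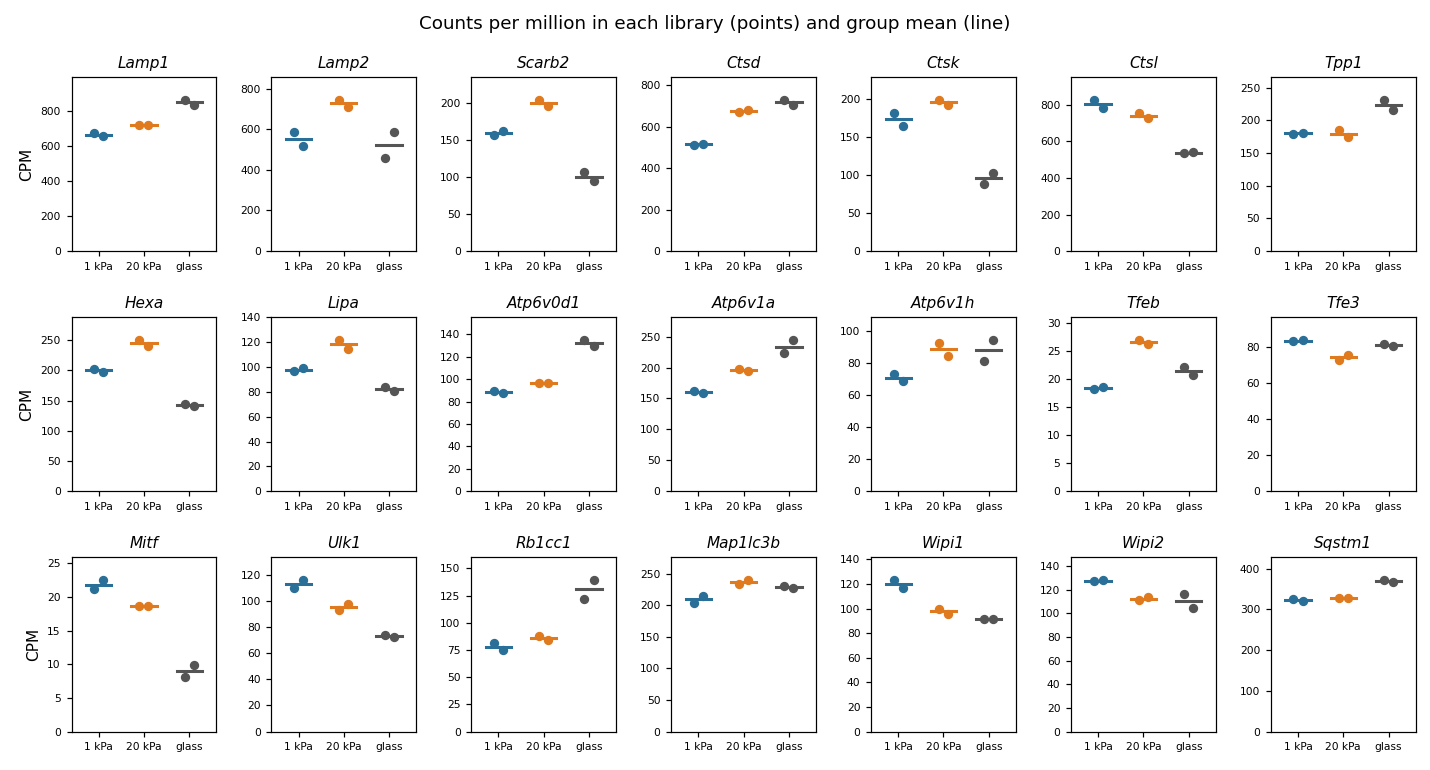
CPM of 21 listed genes in every library (points, 2 per group) with the group mean (line), on axes that start at 0, for 1 kPa, 20 kPa and glass. Scarb2, Ctsk, Ctsl, Hexa and Mitf are lowest on glass, Lamp1, Atp6v0d1, Atp6v1a and Rb1cc1 are highest on glass, and Tfeb and Lamp2 are highest on 20 kPa.

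Of the 14 autophagy genes, 4 were higher and 2 lower on 1 kPa against glass (28.6% and 14.3%), 2 higher and 2 lower on 20 kPa against glass (14.3% and 14.3%), and 1 higher and 3 lower on 20 kPa against 1 kPa (7.1% and 21%). These are counts of few genes. They were below or near the shares over all tested genes given above, except for the 3 falls between the gels. Fewer of those falls passed when a gel library was left out, as over all tested genes. The kinase complex that starts autophagy showed opposite changes in its kinase and its scaffold. Ulk1, the kinase, on chromosome 5 at 110784488 to 110810097 (minus strand), had 111 and 116 CPM on 1 kPa, 93.4 and 97.9 CPM on 20 kPa, and 74.3 and 72.4 CPM on glass. The levels stood in the order 1 kPa, 20 kPa, glass from high to low, without overlap. Ulk1 rose by 0.63 on 1 kPa (SE 0.06, adjusted p = 1.3e-09) and by 0.38 on 20 kPa (SE 0.06, adjusted p = 1.1e-05) against glass. On 20 kPa against 1 kPa it fell by 0.25 (SE 0.06, adjusted p = 0.0042), a call lost without 20 kPa replicate 1 (-0.21, adjusted p = 0.1) and without 1 kPa replicate 2 (-0.21, adjusted p = 0.14).

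Rb1cc1, the scaffold known as FIP200, on chromosome 1 at 6206197 to 6276648 (plus strand), had 81.2 and 74.7 CPM on 1 kPa, 88.1 and 83.9 CPM on 20 kPa, and 122 and 139 CPM on glass. Glass was highest, and no groups overlapped. It fell by 0.74 on 1 kPa (SE 0.07, adjusted p = 2e-10) and by 0.60 on 20 kPa (SE 0.07, adjusted p = 1.3e-08) against glass, the largest falls of any tested listed gene in these comparisons. The gels differed by 0.14 (SE 0.07, adjusted p = 0.17). Ulk2, the related kinase, and Becn1, a subunit of the lipid kinase complex that follows, passed in no comparison. Ulk2 differed by 0.17 between the gels (SE 0.07, adjusted p = 0.071), which passed without glass replicate 1 and without glass replicate 2 (adjusted p = 0.03 in both). Another gene, Cntd1, overlaps 43.9% of the exonic length of Becn1.

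The conjugation genes passed nowhere. Atg7, the activating enzyme, and Atg5 and Atg12, whose products are joined to each other, had log2 fold changes between -0.16 and 0.14 in all 3 comparisons. Of the 3 listed genes of ATG8 proteins, which are coupled to lipid on the growing membrane, Map1lc3b alone passed, in 1 comparison. Map1lc3b, the LC3B gene, had 203 and 215 CPM on 1 kPa, 233 and 240 CPM on 20 kPa, and 231 and 227 CPM on glass. The 1 kPa libraries were lowest and the groups did not overlap. Map1lc3b was 0.18 higher on 20 kPa than on 1 kPa (SE 0.06, adjusted p = 0.027), but not in DESeq2 (adjusted p = 0.053), nor without 20 kPa replicate 1 (0.091), 20 kPa replicate 2 (0.2), 1 kPa replicate 1 (0.34) or 1 kPa replicate 2 (0.1). Against glass it did not pass, with -0.13 on 1 kPa (SE 0.06, adjusted p = 0.065) and 0.05 on 20 kPa (SE 0.06, adjusted p = 0.55); the first passed without glass replicate 2 (adjusted p = 0.035). Map1lc3a and Gabarapl1 passed in no comparison, with -0.14 and -0.13 on 1 kPa against glass and -0.10 for each on 20 kPa against glass. LC3 transcripts do not report the flux of autophagy.

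Wipi1 and Wipi2 encode proteins that bind the lipid PI3P where autophagosomes form, and both were higher on 1 kPa than on glass. Wipi1 had 123 and 116 CPM on 1 kPa, 99.9 and 95.5 CPM on 20 kPa, and 91.8 and 91.6 CPM on glass. The 1 kPa libraries were highest, without overlap. It rose by 0.39 on 1 kPa against glass (SE 0.06, adjusted p = 5.5e-06), did not pass on 20 kPa against glass (0.09, SE 0.06, adjusted p = 0.26), and fell by 0.30 on 20 kPa against 1 kPa (SE 0.06, adjusted p = 0.00061; 0.051 without 1 kPa replicate 1). Wipi2 had 127 and 128 CPM on 1 kPa, 111 and 114 CPM on 20 kPa, and 117 and 105 CPM on glass, with 20 kPa and glass overlapping. It rose by 0.20 on 1 kPa against glass (SE 0.06, adjusted p = 0.0081), a call lost without 1 kPa replicate 1 (0.06), 1 kPa replicate 2 (0.082) or glass replicate 2 (0.091). Its fall of 0.18 on 20 kPa against 1 kPa (SE 0.06, adjusted p = 0.036) was lost in 8 of 14 alternatives, with adjusted p = 0.25 without 20 kPa replicate 1, 0.13 without 20 kPa replicate 2, 0.19 without 1 kPa replicate 1 and 0.24 without 1 kPa replicate 2.

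The listed receptors link cargo to the autophagosome. Sqstm1, the p62 gene, had 324 and 319 CPM on 1 kPa, 329 and 328 CPM on 20 kPa, and 371 and 366 CPM on glass. Both gels lay below glass. It fell by 0.20 on 1 kPa (SE 0.05, adjusted p = 0.004) and by 0.17 on 20 kPa (SE 0.05, adjusted p = 0.014) against glass. The first call was lost without 1 kPa replicate 2 (adjusted p = 0.085), and the second without 20 kPa replicate 1 (0.089), without 20 kPa replicate 2 (0.093) and with total counts (0.11). Mrnip overlaps 17.3% of the exonic length of Sqstm1. Optn, the optineurin gene, had 18.5 and 18.4 CPM on 1 kPa, 20.9 and 18.3 CPM on 20 kPa, and 15.7 and 14.6 CPM on glass, so that the gels overlapped each other and lay above glass. It rose by 0.28 on 1 kPa (SE 0.11, adjusted p = 0.035) and by 0.36 on 20 kPa (SE 0.11, adjusted p = 0.0063) against glass. The first was lost in 6 of 14 alternatives, with adjusted p = 0.13 without 1 kPa replicate 1, 0.12 without 1 kPa replicate 2 and 0.15 without glass replicate 2, and the second without 20 kPa replicate 1 (0.27, adjusted p = 0.12).

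Divided by exonic length, taken as the merged length of all annotated exons of a gene, the listed genes spanned a wide range. That length can exceed the length of the transcripts present, so the order of the genes depends on the annotation. By this measure Psap had the highest mean level, 426 CPM per kb on 1 kPa, 417 on 20 kPa and 361 on glass. Lamp1 followed on 1 kPa and glass with 248 and 317 CPM per kb, and had 269 on 20 kPa, where Ctsd had 287. Among tested genes Mitf and Tfeb were at the low end, Mitf with 3.53, 3.01 and 1.46 CPM per kb and Tfeb with 3.25, 4.7 and 3.79 CPM per kb on 1 kPa, 20 kPa and glass. Tfe3 was the most abundant of the family on every substrate, at 9.01, 8.02 and 8.76 CPM per kb in the same order.

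The wider lists hold other genes of the same pathways, and their counts are to be read beside the shares over all tested genes, which were 23.0% higher and 22.0% lower on 1 kPa against glass, 22.3% and 19.6% on 20 kPa against glass, and 8.94% and 9.92% on 20 kPa against 1 kPa. Of 48 such counts 34 moved by more than 1.5 times in at least 1 alternative. Of 34 other lysosomal hydrolases 8 were higher and 8 lower on 1 kPa against glass, 13 higher and 4 lower on 20 kPa against glass, and 7 higher and 0 lower on 20 kPa against 1 kPa, with median log2 fold changes of 0.02, 0.07 and 0.08. The shares on 1 kPa, 23.5% in each direction, lay near those of all tested genes, while 38.2% and 11.8% were higher and lower on 20 kPa against glass. Fewer of the 7 rises between the gels passed without 20 kPa replicate 1, 1 kPa replicate 1 or 1 kPa replicate 2, as over all tested genes. Ctsf, another cysteine cathepsin, had 55 and 52 CPM on 1 kPa, 51.6 and 54.1 CPM on 20 kPa, and 26.9 and 25.6 CPM on glass. It rose by 1.03 on 1 kPa (SE 0.08, adjusted p = 4.7e-12) and 1.01 on 20 kPa (SE 0.08, adjusted p = 7.8e-12) against glass. Ctsc rose by 1.61 on 1 kPa and 1.52 on 20 kPa, while Asah1, the acid ceramidase, fell by 0.59 on 1 kPa and 0.39 on 20 kPa, and Scpep1 fell by 0.46 and 0.42 in the same order, all against glass. Of 22 other membrane and transport proteins 7 were higher and 7 lower on 1 kPa against glass, 8 higher and 6 lower on 20 kPa against glass, and 3 higher and 2 lower on 20 kPa against 1 kPa. In this list Slc17a5, the sialic acid exporter, rose by 0.62 on 1 kPa and 0.84 on 20 kPa, and Tpcn1, a channel, fell by 0.48 on 1 kPa and 0.49 on 20 kPa against glass.

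Of 13 genes that sort enzymes to the lysosome 3 were higher and 6 lower on 1 kPa against glass. On 20 kPa against glass 2 were higher and 5 lower. The falls were 46.2% of these genes on 1 kPa and 38.5% on 20 kPa. Their median log2 fold changes against glass were -0.15 and 0.02, and 2 were higher and 1 lower on 20 kPa against 1 kPa. Gnptab, which makes the mannose 6-phosphate tag, rose by 0.45 on 1 kPa and 0.18 on 20 kPa against glass, while Gga2, an adaptor, fell by 0.48 on 1 kPa and 0.27 on 20 kPa. Sort1, the sortilin receptor, had 9.75 and 9.53 CPM on 1 kPa, 18.1 and 16.3 CPM on 20 kPa, and 14.5 and 15.1 CPM on glass, and rose by 0.84 on 20 kPa against 1 kPa (SE 0.12, adjusted p = 2.8e-06). Of 14 genes of fusion with the lysosome, 2 were higher and 5 lower on 1 kPa against glass, 0 higher and 5 lower on 20 kPa against glass, and 2 higher and 0 lower on 20 kPa against 1 kPa. The falls were 35.7% of the list on each gel against glass. Those on 20 kPa numbered 3 with no filter and 2 with total counts. They were also fewer without 20 kPa replicate 1 or 20 kPa replicate 2. Over all tested genes the falls on 20 kPa against glass were fewer in these settings too. Rubcn, which restrains fusion, fell by 0.40 on 1 kPa and 0.35 on 20 kPa, and Vps41, a tethering subunit, by 0.44 on 1 kPa and 0.18 on 20 kPa against glass.

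The core autophagy genes and the other receptors had shares below or near those of all tested genes against glass. Of 23 other core autophagy genes 5 were higher and 3 lower on 1 kPa against glass, and 3 higher and 3 lower on 20 kPa against glass. On 20 kPa against 1 kPa 2 were higher and 5 lower. The 5 falls between the gels were 21.7% of these genes, beside 9.92% of all tested genes. Gabarap, another ATG8 gene, had 276 and 271 CPM on 1 kPa, 336 and 351 CPM on 20 kPa, and 381 and 436 CPM on glass, and fell by 0.58 on 1 kPa (SE 0.06, adjusted p = 3.6e-09) and 0.25 on 20 kPa (SE 0.06, adjusted p = 0.0012) against glass. Of 14 other selective receptors 2 were higher and 1 lower on 1 kPa against glass, and 2 were higher and 2 lower in each of the other comparisons. Bnip3, a receptor for mitochondria that low oxygen induces, had 123 and 123 CPM on 1 kPa, 65.9 and 64.9 CPM on 20 kPa, and 56 and 58.7 CPM on glass. It rose by 1.10 on 1 kPa against glass (SE 0.06, adjusted p = 5.6e-15) and fell by 0.91 on 20 kPa against 1 kPa (SE 0.06, adjusted p = 1.7e-12), and Bnip3l rose by 0.38 and fell by 0.42 in these comparisons. Of 26 genes of mTORC1, AMPK and nutrient sensing 4 were higher and 8 lower on 1 kPa against glass. These were 15.4% and 30.8%, beside 23.0% and 22.0% of all tested genes. In each of the other comparisons 3 were higher and 3 lower. Ddit4, an inhibitor of mTORC1 signalling, had 192 and 186 CPM on 1 kPa, 124 and 130 CPM on 20 kPa, and 68.1 and 75.3 CPM on glass, and rose by 1.40 on 1 kPa (SE 0.06, adjusted p = 1.6e-17) and 0.83 on 20 kPa (SE 0.06, adjusted p = 4.6e-12) against glass. Rragc, a lysosomal GTPase that recruits mTORC1, fell by 0.56 on 1 kPa and 0.42 on 20 kPa against glass.

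**Figure D5:**
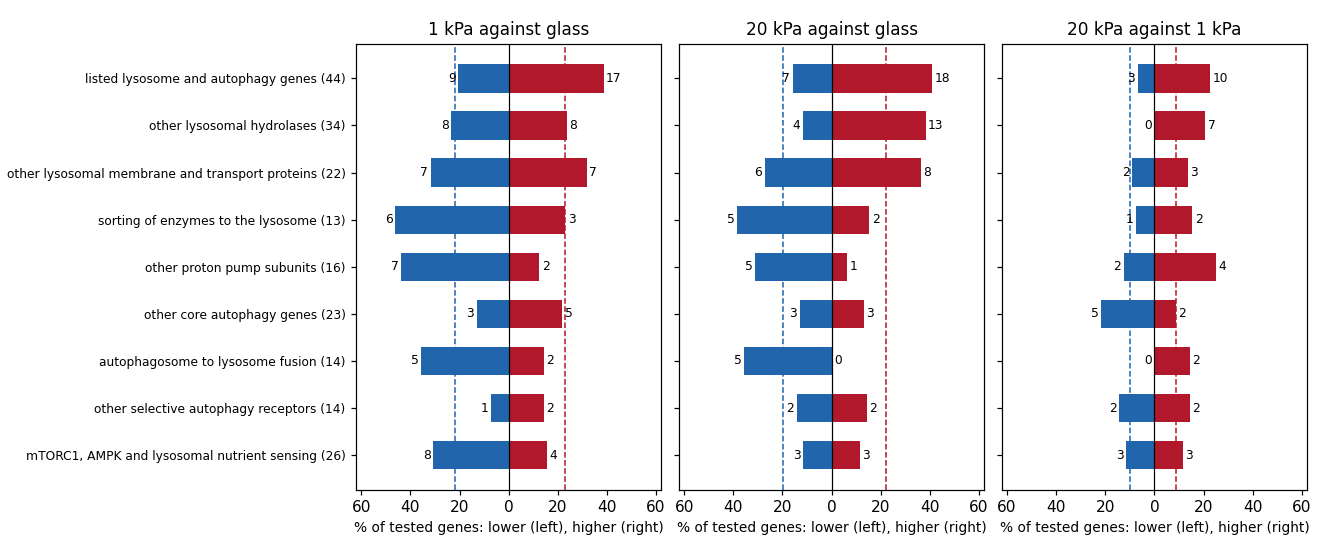
Percent of tested genes that were lower (bars to the left) and higher (bars to the right) at an adjusted p under 0.05 in the listed genes and in 8 wider lists, with counts at the bars and the shares over all tested genes as dashed lines, for the 3 comparisons. The bars of the sorting genes, the other proton pump subunits and the fusion genes reach farther to the left than to the right in both comparisons with glass. Those of the sorting genes reach farthest to the left there.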

How the data were processed

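Whole-number read counts per gene were deposited by the authors without normalisation. The submitters' processing notes name mm10, STAR 2.7.10b and featureCounts, with Trim Galore and cutadapt; for settings, annotation and strand use the answer is not given in the sources used here. Symbols, positions and exonic lengths came from GENCODE M21 (91.4% of identifiers matched), and promoter sequences from RefSeq, GRCm38.p6.

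Counts were fitted with edgeR 4.0.16 (filterByExpr, TMM, quasi-likelihood test, R 4.3.3) over all 6 libraries with group as the only term, which left 3 residual degrees of freedom and a common coefficient of variation of 4.98%. Benjamini-Hochberg adjustment ran over 16093 genes with a threshold of 0.05. Every adjusted p is from this test unless another tool is named. SE is the size of the log2 fold change over the root of its F statistic. An exact permutation test of 2 against 2 libraries cannot go below 0.333 (2-sided), so none was used. The script was tested on simulated data.

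Values in every library are given for up to 5 listed genes with the largest rise and the largest fall among those past the threshold in each comparison, and for Tfeb, Tfe3, Mitf, Sqstm1, Map1lc3b and Lamp1; Optn was added later. From each wider list the 4 genes with the smallest p over the 3 groups could be named. The genes and lists were chosen with earlier results of these data known, so no list was tested. Alternatives were DESeq2 1.42.0, limma-voom (limma 3.58.1), RLE size factors, total counts, no filter, a stricter filter, a fit of only the 4 libraries compared, the replicate number as a block, and leaving out each library.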

Additional observations from a re-analysis of the deposited data

How the results depend on the processing

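Of the 64 calls over the 44 tested genes, 0 changed sign over 14 alternatives. Of the differences that were not called, 25 did in at least 1 alternative, among them Lamp2 on 1 kPa against glass, and Atp6v1h and Wipi2 on 20 kPa against glass. In all, 22 of 26 calls on 1 kPa against glass, 19 of 25 on 20 kPa against glass and 5 of 13 on 20 kPa against 1 kPa held throughout, the last being Scarb2, Ctsd, Hexa, Atp6v1a and Tfeb. The 3 falls on 20 kPa against 1 kPa became 6 with only the 4 libraries, where the 1597 falls over all tested genes became 1938. Fewer of the 10 rises and 3 falls there passed when a gel library was left out. More listed genes passed when a glass library was left out. The same held over all tested genes. The median log2 fold change of the listed genes on 1 kPa against glass (0.04) ran from 0.01 to 0.07 when each library was left out. On 20 kPa against glass it was 0.08, and 0.11 with total counts. On 20 kPa against 1 kPa it was 0.06, with 0.05 in DESeq2, 0.05 with RLE size factors, 0.11 with total counts and 0.06 to 0.09 when each library was left out. The cause of these shifts was not tested. Differences that passed only in some alternatives include Glb1 and Neu1 on 1 kPa against glass without glass replicate 1 (adjusted p = 0.026 and 0.036), Map1lc3a there without glass replicate 1 (0.049), Gabarapl1 without glass replicate 2 (0.049) and Glb1 on 20 kPa against 1 kPa with only the 4 libraries (0.047).

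Over all alternatives, counts of the wider lists on 20 kPa against 1 kPa ran from 0 to 7 rises for the mTORC1 list (3 as reported), 2 to 7 for the other pump subunits (4) and 0 to 2 for the other receptors (2), and from 0 to 3 falls for the membrane and transport list (2) and 2 to 5 for the core autophagy genes (5). The falls on 20 kPa against glass ran from 1 to 5 for the other pump subunits (5), 2 to 5 for sorting (5), 3 to 6 for membrane and transport (6) and 1 to 5 for the core autophagy genes (3).

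Whether same-numbered libraries share a culture or animal is not stated. Their deviations from their group means correlated at -0.0347 (1 kPa and glass), -0.0158 (20 kPa and glass) and -0.0338 (20 kPa and 1 kPa). With 2 libraries a group these values cannot decide whether the libraries were paired. With the replicate number as a block 17 listed genes were higher and 9 lower on 1 kPa against glass, 18 and 6 on 20 kPa against glass (the fall of Atp6ap1 was lost), 10 and 2 on 20 kPa against 1 kPa (that of Wipi2 was lost), and 30 differed over the 3 groups. Ctss, with 1 to 10 counts per library, was not tested.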
